A study of Mus musculus with 10 samples.

Results

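This account follows 10 genes that make or remove reactive oxygen species in the gut epithelium, Nox1, Duox2, Duoxa2, Gpx1, Gpx2, Gpx4, Cat, Sod1, Sod2 and Txnrd1, in crypts of mice with and without Arid3a. The genes were taken by name, for what they encode, and are 10 of the 54838 genes listed for each library. All 10 passed the filter on low counts and were among the 14719 genes tested. The data are RNA-seq libraries of crypts from the jejunum, 5 from WT and 5 from Arid3a cKO mice, with 1 animal per library. The cKO animals were VillinCre-ERT2+/-; Arid3a fl/fl, in which a tamoxifen-activated Cre under the Villin promoter deletes Arid3a in epithelial cells and spares stroma and immune cells. Animals of both genotypes were injected with tamoxifen on 3 consecutive days and culled 1 month after the first injection. Their age and the alleles that the WT animals carried are not given in the sources used here. The identifiers of the animals in the labels have 6 stems in 2 series, and no stem or series occurs in both genotypes. What a stem or series marks is not stated, and it cannot be told apart from genotype.

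NADPH oxidases pass electrons from NADPH to oxygen. NOX1, the main NADPH oxidase of the gut epithelium, releases superoxide and needs the subunits NOXO1, NOXA1, p22phox (Cyba) and RAC1. DUOX2 releases hydrogen peroxide at the apical surface, where microbes are met, and leaves the endoplasmic reticulum only with its maturation factor DUOXA2. Superoxide dismutases turn superoxide into hydrogen peroxide, SOD1 in the cytosol and SOD2 in mitochondria. Hydrogen peroxide is then removed by catalase in peroxisomes and by glutathione peroxidases, of which GPX1 is found in most cells, GPX2 mainly in gut epithelium, and GPX4 acts on lipid peroxides in membranes. Thioredoxin reductase 1 (TXNRD1) keeps thioredoxin reduced. GPX1, GPX2, GPX4 and TXNRD1 are selenoproteins, in which selenocysteine stands at the active site.

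Duox2 and Duoxa2 lie head to head on chromosome 2 of GRCm38, with 450 bases between their annotated ends. Duox2 runs on the minus strand from 122279247 to 122298449 and Duoxa2 on the plus strand from 122298900 to 122302885. The 250 bases before the start of Duoxa2 lie wholly in this gap, upstream of both genes, and overlap no annotated exon. They are shown as sequence upstream of both genes. The RNA of both genes moved together between animals, most clearly among cKO animals, as described further on. Other genes, such as Slc11a2, moved more closely with Duox2 than Duoxa2 did, and a part of this sequence in the movement was not tested. The sequence is from RefSeq on GRCm38.p6, plus strand, chr2:122298650-122298899.
Duoxa2 upstream: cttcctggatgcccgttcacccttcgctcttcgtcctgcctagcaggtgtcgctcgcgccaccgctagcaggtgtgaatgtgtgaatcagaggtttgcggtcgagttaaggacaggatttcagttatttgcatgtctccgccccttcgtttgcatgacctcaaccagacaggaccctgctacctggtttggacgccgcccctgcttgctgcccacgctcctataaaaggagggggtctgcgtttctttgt

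Windows from 250 bases before to 50 bases after the RefSeq start sites of the 10 genes, 15 windows in all, were searched on both strands for a pair of motifs. One was the core of the antioxidant response element bound by NRF2, TGACNNNGC, and the other the HNF4 motif CAAAGTCCA. No window of the 10 genes held both. The NRF2 core was in 2 of the 15 windows, of Sod1 and of Txnrd1, and in 4071 of 32851 windows of all genes (12.4%). CAAAGTCCA was in none of the 15 windows and in 156 of all windows (0.475%). Both NRF2 core matches read on the minus strand, as TGACCACGC before Sod1 and as TGACAAAGC before Txnrd1, and are in capitals in the plus-strand sequences below, with 25 bases on each side. They are shown because they are the only matches among the 10 genes. The Sod1 stretch is chr16:90220681-90220739 and the Txnrd1 stretch chr10:82859089-82859147, both RefSeq, GRCm38.p6, plus strand.
Sod1: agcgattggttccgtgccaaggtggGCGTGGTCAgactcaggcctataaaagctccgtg
Txnrd1: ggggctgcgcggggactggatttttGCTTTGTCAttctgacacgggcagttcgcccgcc
The match ended 48 bases before the RefSeq start of Sod1. Txnrd1 has 3 RefSeq windows, and the match ended 84 bases before the start at 82859206, which lies inside the gene as annotated from 82833951. A match is a description of the letters and shows no binding.

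The libraries held 27050455 to 28152743 expected counts in WT and 28314069 to 31053622 in cKO. Arid3a, the targeted gene, had 55 to 81 counts in WT and 9 to 31 in cKO libraries, with a log2 fold change of −1.84 (standard error 0.32, adjusted p = 0.00204, edgeR's quasi-likelihood test, Benjamini-Hochberg adjusted). Over all genes, 4167 of 14719 (28.3%) passed an adjusted p of 0.05, 15.6% higher and 12.7% lower in cKO, and 19.6% had groups that did not overlap in CPM. CPM are counts scaled to a common library size after edgeR's TMM normalization. The labelled tissue was checked by its markers. The 6 epithelial markers summed to 4349 to 4799 TPM in WT and 4396 to 5195 in cKO libraries, while 8 stromal markers reached at most 75.5 TPM and 10 immune markers at most 163. The neutrophil genes Mpo and Elane had at most 3 counts in every library. The 9 enterocyte markers summed to 1384 to 7030 TPM in WT and 7284 to 14483 in cKO, with no overlap and all 9 past the threshold. The 7 Paneth markers summed to 45153 to 66139 TPM in WT and 26066 to 36237 in cKO, again without overlap, and 6 of 7 fell. Of the other epithelial lineages, 4 of 6 stem cell markers fell, 3 of 6 enteroendocrine and 3 of 5 tested tuft markers rose, and 1 of 7 goblet markers fell. In whole crypts, more or fewer cells of a type and more or less RNA per cell cannot be told apart, and the part of these markers in each difference below was not tested. The cKO replicates 4 and 5, whose identifiers share a stem, had the highest enterocyte sums (14483 and 14197 TPM). Results that rest on them are also given without both for the 10 genes, their sums, ratios and order, and the counts of the gene lists. Correlations between genes and the values of single genes outside the 10 are not given without both. With both left out, 1980 of 15183 genes tested passed, in place of 4167 of 14719. The lower counts in the lists below stand beside this lower count over all genes.

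Of the 10 genes, Cat and Gpx4 rose in cKO crypts and the other 8 did not pass the test, so 20% of them passed beside 28.3% of all genes. The median log2 fold change was 0.15 over the 10 genes and −0.03 over all genes tested. The same 2 genes were the ones whose groups did not overlap, 20% beside 19.6% of all genes. Neither share stood above the background of the experiment. Fitted on log2(TPM + 0.5) with limma, where 29.5% of 13992 genes passed, Cat and Gpx4 again passed and no other of the 10 did.

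**Figure D1:**
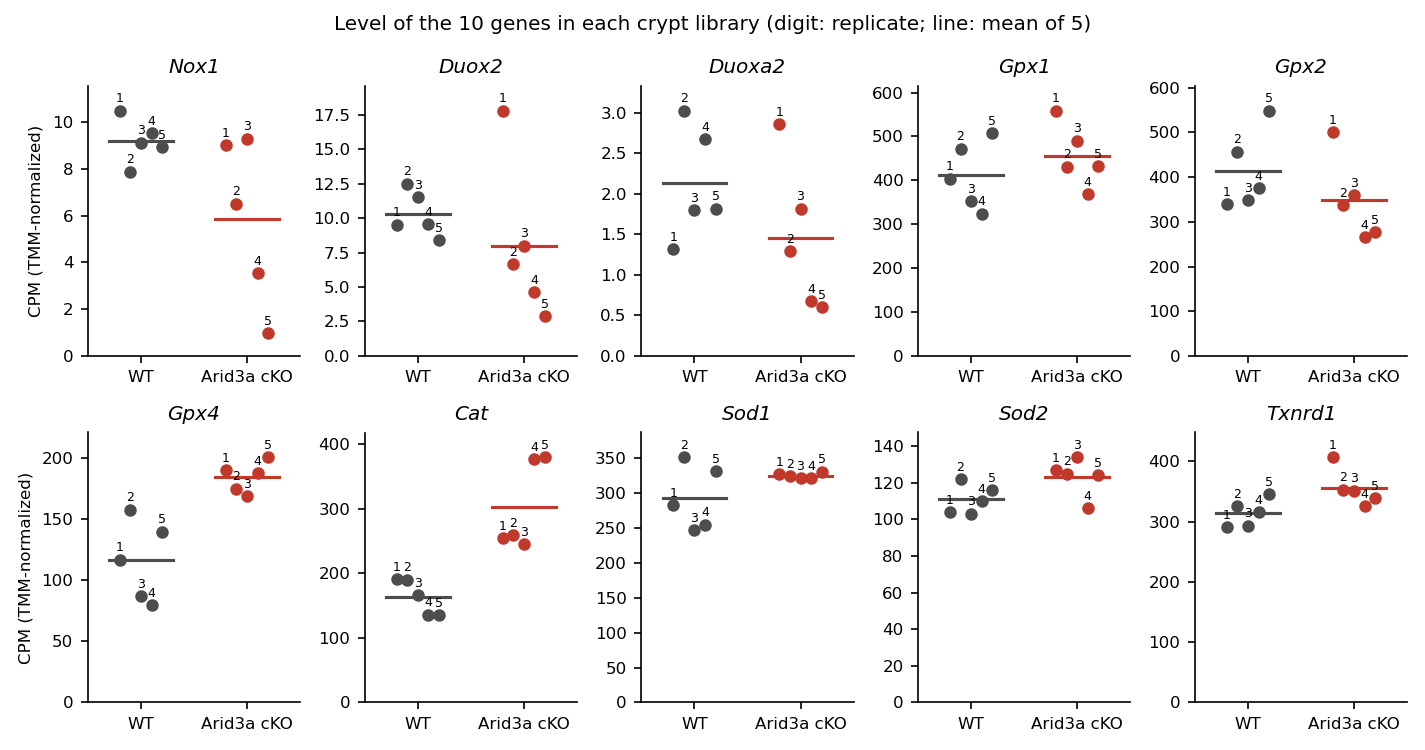
Level of each of the 10 genes in CPM (vertical axes from 0) in the 5 WT (grey) and 5 Arid3a cKO libraries (red), with the replicate number at each point and a line at the mean. Cat and Gpx4 are higher in all 5 cKO libraries than in any WT library, while Nox1, Duox2 and Duoxa2 spread widely among the cKO libraries, with replicates 4 and 5 lowest.

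Cat encodes catalase, the peroxisomal enzyme that splits hydrogen peroxide into water and oxygen, and lies on chromosome 2 from 103453849 to 103485160. Its level was 191, 190, 166, 136 and 135 CPM in WT replicates 1 to 5 and 254, 259, 245, 377 and 380 CPM in cKO replicates 1 to 5. Every cKO library lay above every WT library, and within cKO the replicates 4 and 5 stood apart at the top. The means were 163 ± 27.6 CPM for WT and 303 ± 69.1 CPM for cKO libraries (SD, n = 5 each), a 1.85-fold difference. Its log2 fold change came to 0.89 (standard error 0.16, adjusted p = 0.00301, edgeR's quasi-likelihood test, Benjamini-Hochberg adjusted) and was 0.78 on TPM with limma (adjusted p = 0.0089). Leaving out each library in turn gave 0.79 to 0.96. Without cKO replicates 4 and 5 it was 0.63 (adjusted p = 0.0169 from edgeR), so the other 3 cKO animals also passed against the 5 WT animals. Counts between 3713 and 11082 per library leave little counting error in these values.

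Gpx4 encodes the glutathione peroxidase that reduces lipid hydroperoxides in membranes and so restrains ferroptosis, and lies on chromosome 10 from 80047166 to 80056439. It was at 117, 158, 86.9, 79.6 and 140 CPM in WT replicates 1 to 5 and at 190, 175, 169, 188 and 201 CPM in cKO replicates 1 to 5. The cKO libraries were all above the WT libraries and lay closer together, with a highest value 1.19 times the lowest, beside 1.98 times in WT. The mean rose from 116 ± 33.5 to 184 ± 12.9 CPM (SD, n = 5 each), 1.59-fold, with a log2 fold change of 0.67 (standard error 0.17, adjusted p = 0.0148, edgeR's quasi-likelihood test, Benjamini-Hochberg adjusted). Without cKO replicates 4 and 5 it was 0.61 and the call was lost (adjusted p = 0.0916), and it was also lost when no gene was filtered (adjusted p = 0.0560). The pseudogene Gpx4-ps2 is 99.7% identical to Gpx4 over their aligned part, so that reads are divided between them by estimate. It held 424 to 808 counts per library and did not pass the test (log2 fold change 0.10, adjusted p = 0.694), and with the copies added to Gpx4 the log2 fold change of Gpx4 was 0.60 (adjusted p = 0.0216, edgeR).

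Gpx1 and Gpx2, the other glutathione peroxidases among the 10, did not pass the test. Gpx1 (chromosome 9, 108338903 to 108340343) ranged from 324 to 508 CPM in WT and from 369 to 559 CPM in cKO, with a log2 fold change of 0.15 (standard error 0.14). Gpx2 (chromosome 12, 76792333 to 76795554) ranged from 339 to 549 CPM in WT and from 266 to 500 CPM in cKO, with a log2 fold change of −0.25 (standard error 0.19). The adjusted p was 0.446 for Gpx1 and 0.341 for Gpx2 (edgeR's quasi-likelihood test, Benjamini-Hochberg adjusted), and their groups overlapped. The ratio between them removes what both share in a library. The log2 ratio of Gpx1 to Gpx2 in TPM was 0.75, 0.51, 0.48, 0.26 and 0.34 in WT replicates 1 to 5 and 0.61, 0.83, 0.89, 0.92 and 1.12 in cKO replicates 1 to 5. Only cKO replicate 1 fell within the WT range, below WT replicate 1. The mean was 0.47 ± 0.19 in WT and 0.87 ± 0.18 in cKO (SD, n = 5 each), a difference of 0.40 (p = 0.0159 by an exact permutation test, two-sided). Over the 6 sums and ratios tested in this way the adjusted p was 0.0952, which misses the threshold. Without cKO replicate 1 the difference was 0.47 (adjusted p = 0.0476 by the exact permutation test), and without cKO replicates 4 and 5 it was 0.31 (adjusted p = 0.429). The summed TPM of Gpx1, Gpx2 and Gpx4 was 1599 ± 219 in WT and 1613 ± 242 in cKO (exact permutation test, p = 0.944). The mean of Gpx4 in this sum was higher in cKO (328 beside 222 TPM) and that of Gpx2 lower (459 beside 578 TPM, not past the test).

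Sod1, Sod2 and Txnrd1 had small positive differences on counts, none of which passed the test. Sod1 (chromosome 16, 90220754 to 90226329) averaged 294 ± 46.6 CPM over WT libraries and 325 ± 3.94 CPM over cKO libraries (SD, n = 5 each), with a log2 fold change of 0.15. The 5 cKO libraries of Sod1 lay between 322 and 331 CPM, inside the WT range of 247 to 352 CPM. Sod2 (chromosome 17, 13006846 to 13040063) ranged from 103 to 122 CPM in WT and from 106 to 134 CPM in cKO, with a log2 fold change of 0.15. Replicate 4 was the only cKO library of Sod2 that did not exceed every WT library. Txnrd1 (chromosome 10, 82833951 to 82897712) ranged from 291 to 345 CPM in WT and from 325 to 407 CPM in cKO, with a log2 fold change of 0.18 and an unadjusted p of 0.0404 in the edgeR fit across all genes. The adjusted p values from edgeR's quasi-likelihood test were 0.266 for Sod1, 0.149 for Sod2 and 0.106 for Txnrd1. Without WT replicate 5, Txnrd1 passed (log2 fold change 0.23, adjusted p = 0.0472, edgeR). On TPM, which divides by length and by all transcripts of a library, the log2 differences shrank to 0.07 for Sod1, −0.01 for Sod2 and 0.05 for Txnrd1. The log2 ratio of Sod2 to Sod1 in TPM was −2.85 ± 0.11 in WT and −2.93 ± 0.11 in cKO (SD, n = 5 each, exact permutation test, p = 0.27).

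**Figure D2:**
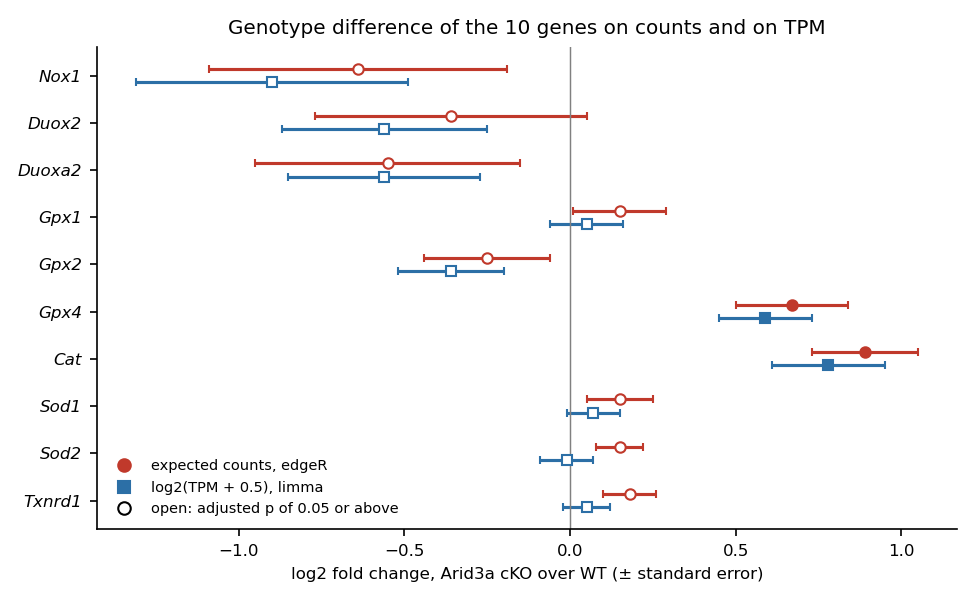
Log2 fold change of the 10 genes, Arid3a cKO over WT, with its standard error (horizontal axis), from edgeR on expected counts (red circles) and from limma on log2(TPM + 0.5) (blue squares). Filled points passed an adjusted p of 0.05. Cat (0.89 and 0.78) and Gpx4 (0.67 and 0.59) are the filled pairs, and the 3 oxidase genes lie left of 0 with the widest errors.

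The oxidase genes Nox1, Duox2 and Duoxa2 had lower means in cKO crypts and varied widely among the cKO animals, and none passed the test. Nox1 (chromosome X, 134086421 to 134221956) was at 10.5, 7.88, 9.12, 9.54 and 8.94 CPM in WT replicates 1 to 5 and at 9.02, 6.52, 9.29, 3.53 and 0.983 CPM in cKO replicates 1 to 5. The WT libraries lay close together, cKO replicates 1 and 3 were among them, and cKO replicates 2, 4 and 5 were below all of them. The highest cKO value was 9.45 times the lowest, beside 1.33 times in WT. In counts, Nox1 had 229 to 302 in WT and 268, 177, 266, 104 and 26.3 in cKO replicates 1 to 5, so that counting error alone does not set this spread. The mean was 9.2 ± 0.953 CPM over WT and 5.87 ± 3.59 CPM over cKO libraries (SD, n = 5 each), with a log2 fold change of −0.64 (standard error 0.45, adjusted p = 0.315, edgeR's quasi-likelihood test, Benjamini-Hochberg adjusted). The value was −0.15 without cKO replicates 4 and 5 (adjusted p = 0.519, edgeR). Exons of Nox1 overlap those of Cstf2 on the opposite strand, which held up to 2853 counts, and the strand setting of the counting is not given in the sources used here. Cstf2 averaged 80.2 ± 10.1 CPM over WT and 65.8 ± 5.68 CPM over cKO libraries (SD, n = 5 each), and in cKO replicate 5, where Nox1 had 26.3 counts, it held 1562.

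Duox2 was at 9.53, 12.5, 11.5, 9.54 and 8.39 CPM in WT replicates 1 to 5 and at 17.8, 6.67, 8, 4.62 and 2.87 CPM in cKO replicates 1 to 5. Replicate 1 of cKO was the highest of all 10 libraries and the other 4 cKO libraries were below every WT library. Its log2 fold change came to −0.36 (standard error 0.41, adjusted p = 0.542, edgeR's quasi-likelihood test, Benjamini-Hochberg adjusted). This value depended on single animals. Without cKO replicate 1 it was −0.89 and passed the test (adjusted p = 0.0322), and without cKO replicates 4 and 5 it was 0.08 (adjusted p = 0.881), with the opposite sign. Duoxa2 was at 1.32, 3.03, 1.80, 2.68 and 1.82 CPM in WT and 2.86, 1.29, 1.82, 0.680 and 0.605 CPM in cKO replicates 1 to 5. Again cKO replicate 1 was the highest of its group and replicates 4 and 5 the lowest, at 20.2 and 15.5 counts, where counting error is a larger part of the value. The log2 fold change of Duoxa2 was −0.55 (standard error 0.40, adjusted p = 0.327, edgeR), and −0.09 without cKO replicates 4 and 5 (adjusted p = 0.871). Exons of Duoxa2 overlap those of Duoxa1 on the opposite strand, which held at most 20 counts in a library. As for Nox1, the strand setting of the counting is not given.

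Enzyme and maturation factor kept a similar ratio in both genotypes. The log2 ratio of Duoxa2 to Duox2 in TPM was −0.49 ± 0.41 in WT and −0.56 ± 0.24 in cKO (SD, n = 5 each), with p = 0.73 by an exact two-sided permutation test. Correlations were taken across the 10 libraries, with the genotype mean taken off the log2 CPM of each gene. Pearson's r was 0.87 between Duox2 and Duoxa2 and 0.81 between Nox1 and Duox2, given as a description of genes measured in the same libraries. These values lean on the wide spread within cKO. There the highest CPM was 9.45 times the lowest for Nox1 and 6.19 times for Duox2, beside 1.33 and 1.48 times in WT. Within WT, replicate 2 had the highest Duox2 and the lowest Nox1. The r without cKO replicates 4 and 5 was not computed. The summed TPM of Nox1, Duox2 and Duoxa2 was 9.60, 9.48, 9.65, 10.7 and 7.60 in WT replicates 1 to 5 and 11.1, 5.50, 7.86, 3.48 and 1.54 in cKO replicates 1 to 5. The cKO libraries held both the highest and the lowest sums. The means were 9.41 ± 1.13 and 5.90 ± 3.75 (SD, n = 5 each, exact permutation test, p = 0.0873, and 0.262 adjusted over the 6 sums and ratios). The difference of −3.51 was −4.82 without cKO replicate 1 (adjusted p = 0.0476 by the same exact permutation test) and −1.25 without cKO replicates 4 and 5 (adjusted p = 0.893). In the latter setting a single sum could not pass after adjustment, as the assignments are too few.

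The animals with the least Nox1, Duox2 and Duoxa2 were those with the most Cat and the highest enterocyte sum. In cKO replicates 4 and 5 Nox1 was at 3.53 and 0.983 CPM, Cat at 377 and 380 CPM, and the 9 enterocyte markers at 14483 and 14197 TPM. In the other 3 cKO libraries Nox1 was at 6.52 to 9.29 CPM, Cat at 245 to 259 CPM, and the enterocyte markers at 7284 to 10719 TPM. Within WT the enterocyte sum ranged from 1384 to 7030 TPM while Nox1 stayed between 7.88 and 10.5 CPM. WT replicate 2 had both the highest enterocyte sum and the lowest Nox1 of the WT libraries. WT replicate 1 had both the highest Nox1 and, at 191 CPM beside 190 in replicate 2, the highest Cat of WT. The immune and stromal sums of these 2 animals were above those of the other 3 cKO libraries. In cKO replicates 1 to 3 the immune sum was 61, 47.9 and 37.8 TPM and the stromal sum 13.9, 11.8 and 17 TPM. The immune sums of cKO replicates 4 and 5 lay within the WT range, and replicate 4 held the highest stromal sum of all libraries. The immune sum was 157 and 86.8 TPM and the stromal sum 75.5 and 25.5 TPM in cKO replicates 4 and 5, beside 86.0 to 163 and 15 to 60.5 TPM in WT. Both animals also had the lowest Paneth sums (29703 and 26066 TPM), the highest enteroendocrine (609 and 546 TPM) and tuft sums (64.2 and 60.9 TPM), and the most Arid3a of the cKO libraries, with 26 and 31 counts beside 9 to 14.

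**Figure D3:**
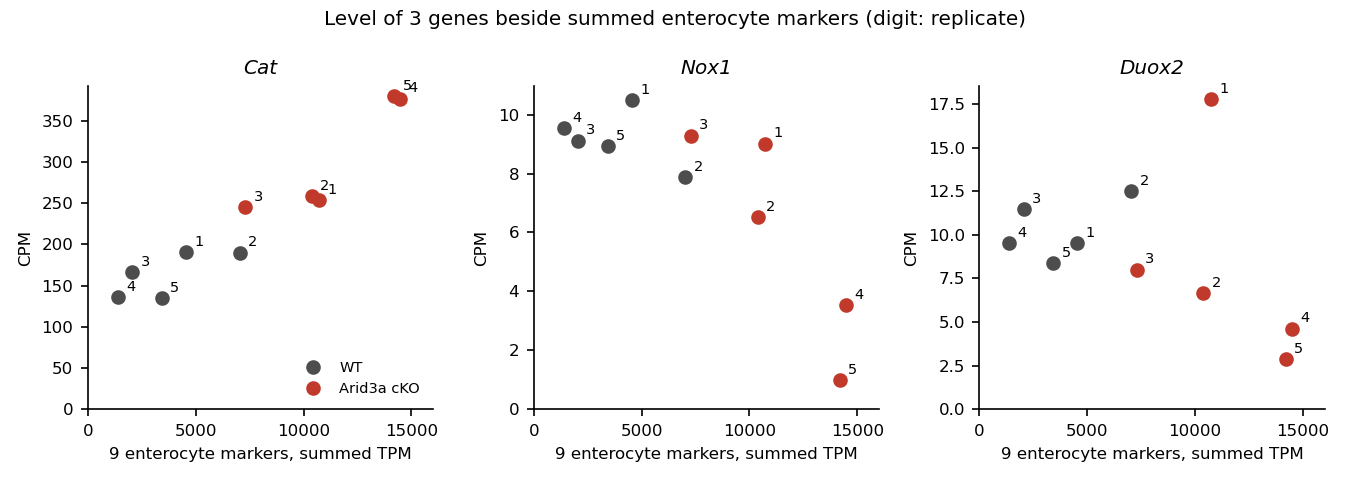
CPM of Cat, Nox1 and Duox2 (vertical axes from 0) against the summed TPM of 9 enterocyte markers (horizontal axis) in the 5 WT (grey) and 5 Arid3a cKO libraries (red), with the replicate number at each point. The cKO replicates 4 and 5, at 14483 and 14197 TPM, are highest in Cat and lowest in Nox1 and Duox2, and cKO replicate 1 is highest in Duox2.

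Levels of different genes are compared in TPM, which is per length. In WT crypts the order of the mean levels was Gpx1 (798 ± 104 TPM), Sod1 (686 ± 79.9), Gpx2 (578 ± 88.8), Gpx4 (222 ± 53.0), Txnrd1 (135 ± 7.80), Sod2 (95 ± 8.9), Cat (84.0 ± 15.2), Nox1 (5.06 ± 0.858), Duox2 (2.51 ± 0.471) and Duoxa2 (1.84 ± 0.623), each as SD with n = 5. The enzymes that remove reactive oxygen species were thus all above the oxidase genes, with the lowest WT library of Cat at 63.3 TPM and the highest of Nox1 at 6.04 TPM. Ranges of neighbours overlapped between Gpx1 and Sod1, Sod1 and Gpx2, Sod2 and Cat, and Duox2 and Duoxa2. Within each WT library, Gpx1 was above Sod1 and Sod1 above Gpx2 in 5 of 5, and Sod2 was above Cat in 4 of 5. In cKO crypts the order was the same except that Cat moved from rank 7 to rank 5, ahead of Txnrd1 and Sod2, with 146 ± 36.4 TPM, beside 140 ± 12.5 TPM for Txnrd1 and 94.2 ± 6.83 TPM for Sod2. Cat and Txnrd1 overlapped in cKO, where Cat was the higher of the pair in 2 of 5 libraries, while Txnrd1 and Sod2 did not overlap. The libraries with more Cat than Txnrd1 were cKO replicates 4 and 5, and without them Cat stood at rank 6 with 120 ± 3.57 TPM, below Txnrd1 with 144 ± 15.7 TPM (SD, n = 3).

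**Figure D4:**
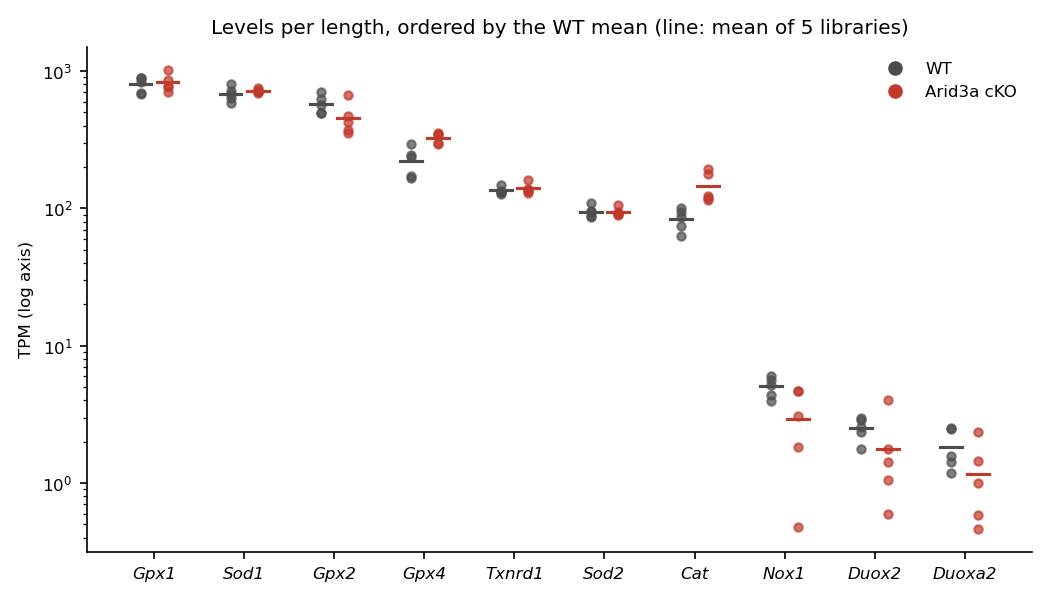
TPM of the 10 genes (log axis) in each library, ordered by the WT mean, with WT in grey, Arid3a cKO in red and a line at each mean. The 7 genes that remove reactive oxygen species lie above 60 TPM, the 3 oxidase genes below 7 TPM, and Cat moved from rank 7 in WT to rank 5 in cKO, ahead of Txnrd1 and Sod2.

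The genes most like Nox1, Duox2 and Gpx2 across the 10 libraries were found by Pearson's r of log2 CPM with each genotype mean taken off, among 10455 genes with a mean of at least 5 CPM. Nearest to Nox1 was Noxa1 (r = 0.95), the activator subunit of the same oxidase, followed by Smarcd3 and Kif3b (both 0.93). Nearest to Duox2 were Slc11a2 (0.94), which encodes the iron transporter DMT1, Zc3h12a (0.92), which encodes the RNase Regnase-1, and Gm42427 (0.91). Nearest to Gpx2 were Kctd10 (0.97), Ralb and Comtd1 (both 0.96). These values describe 10 libraries that share depth and normalization and carry no test. Their genotype differences were unlike those of the genes they resembled in some cases, since Slc11a2 was higher in cKO (log2 fold change 0.66, adjusted p = 0.00897, edgeR) and Duox2 did not pass.

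Noxa1 and Noxo1, the cytosolic partners of NOX1, fell in cKO crypts. Of 16 genes of NADPH oxidases and their subunits, 12 were tested, of which 4 fell and 1 rose, beside 12.7% lower and 15.6% higher over all genes, with a median log2 fold change of −0.52. Without Nox1, Duox2 and Duoxa2 the median of the other 9 was −0.49. Noxa1 fell from 39.3 ± 3.76 to 21 ± 7.5 CPM without overlap (log2 fold change −0.90, adjusted p = 0.0207), and Noxo1, the organizer subunit, from 47.1 ± 7.75 to 34.4 ± 5.56 CPM (−0.45, adjusted p = 0.0256, edgeR's quasi-likelihood test, Benjamini-Hochberg adjusted, SD, n = 5 each). Ncf4, a subunit best known from phagocytes, also fell (−1.53), from a level of 1.31 CPM. Rac1, the GTPase that many pathways use, rose by 0.23 on the log2 scale. Cyba, the shared membrane subunit, had −0.59 and did not pass (adjusted p = 0.0636, edgeR). The count of 5 called genes was 3 without WT replicate 3, WT replicate 4, cKO replicate 2 or cKO replicate 5, 2 with effective gene length as an offset, and 4 without cKO replicates 4 and 5. Of the 10 immune markers, 1 fell. Their summed TPM was 61, 47.9 and 37.8 in cKO replicates 1 to 3, below the WT range of 86 to 163. In cKO replicates 4 and 5 it was 157 and 86.8, within that range. The part of immune cells in the differences of this list was not tested. Nox3, Nox4, Duox1 and Duoxa1 were under the filter.

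Other enzymes also remove peroxides. Of 10 superoxide dismutase, catalase and peroxiredoxin genes tested, 3 rose and none fell (30% beside 28.3% called over all genes), with a median of 0.15, and of 0.07 without Sod1, Sod2 and Cat. Besides Cat they were Prdx5, a peroxiredoxin of mitochondria, peroxisomes and cytosol (0.77, from 80.3 ± 22.2 to 137 ± 13.3 CPM), and Prdx1, the abundant cytosolic form (0.36). The peroxiredoxins Prdx2, Prdx3, Prdx4 and Prdx6 lay between −0.08 and 0.07 and did not pass. Of the glutathione peroxidases, 4 of 8 genes were tested and Gpx4 alone passed, while Gpx3 had 0.05. In the thioredoxin and glutaredoxin system 3 of 14 genes rose and none fell (21.4% beside 15.6% higher over all genes), with a median of 0.06. They were Glrx, a glutaredoxin (0.87, from 139 ± 30.0 to 255 ± 43.9 CPM), Srxn1, which reactivates overoxidized peroxiredoxins (0.85), and Msra, which repairs oxidized methionine (0.28). Leaving out WT replicate 2 gave 5 called genes in place of 3, and leaving out WT replicate 5 gave 6. When cKO replicates 4 and 5 were left out, 1 gene passed in this list and 1 in the list with Cat.

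Glutathione is the electron donor of the glutathione peroxidases. Of 12 genes of glutathione synthesis and recycling, all tested, 7 rose and none fell (58.3% beside the 15.6% of all genes that were higher), with a median log2 fold change of 0.31. Gclm, the modifier subunit of the rate-limiting ligase, rose from 53.2 ± 4.94 to 82.7 ± 7.64 CPM (SD, n = 5 each) without overlap (0.64, adjusted p = 0.000702, edgeR's quasi-likelihood test, Benjamini-Hochberg adjusted). Ggt1, the brush border enzyme that breaks down extracellular glutathione, rose from 71.8 ± 45.0 to 260 ± 59.1 CPM (1.86), and Slc3a2 (0.51) and Chac2 (0.57) rose too. Chac2 degrades glutathione and Slc3a2 is part of many amino acid exchangers, so these genes do not all act in synthesis. The synthase Gss (0.00) and the reductase Gsr (0.02) did not pass. The count of 7 was 7 on leaving out any 1 library. It was 4 without cKO replicates 4 and 5, where 1980 genes passed in all in place of 4167.

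NADPH, which glutathione and thioredoxin reductases use, is made by several enzymes. Of 11 genes listed for NADPH supply, 4 rose and 1 fell (36.4% and 9.09%, beside 15.6% higher and 12.7% lower over all genes), with a median of 0.12. The list also holds genes that do not make NADPH themselves, such as the NAD kinase Nadk2. Without cKO replicates 4 and 5, 4 genes of the list passed in all. Idh1, the cytosolic and peroxisomal isocitrate dehydrogenase, rose from 139 ± 37.8 to 315 ± 28.2 CPM (1.18, adjusted p = 0.000981, edgeR), Nnt, the transhydrogenase of mitochondria, had 0.82, Me1, malic enzyme, 0.76 and Nadk2, a mitochondrial NAD kinase, 0.46, all past the test. The mitochondrial Idh2 fell by 0.30 on the log2 scale. Nnt is listed as a pair of overlapping genes on the same strand, between which reads are divided by estimate, and the values are those of the entry with more counts. The pentose phosphate genes G6pdx (0.03), Pgd (0.19), Pgls (−0.21), Taldo1 (0.04) and Tkt (−0.11) did not pass.

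NRF2 is the transcription factor that drives many antioxidant genes, among them Txnrd1. Of 19 genes tested for NRF2, its regulators and targets, 11 rose and none fell (57.9% beside 15.6%), with a median of 0.24. Among the 11 were the regulators Bach1 (0.34), Mafk (0.24) and Maff (0.70), so the count is not one of targets alone. Fth1 and Ftl1, the ferritin chains that store iron, rose by 0.93 and 0.32 on the log2 scale, Nqo1, a quinone reductase, by 0.43, Osgin1 by 1.04 and Abcc2, an apical exporter of conjugates, by 1.49, with Gclm and Srxn1 as given above. The factor itself, Nfe2l2, had 0.19 (adjusted p = 0.101, edgeR), Hmox1, a heme-degrading target, 0.16, and neither passed. Abcc2 and Ggt1 are also genes of the enterocyte brush border. The count of 11 was 7 with scaling by library size only, and 6 or 7 without WT replicates 1, 3 or 4 or cKO replicates 1, 4 or 5, and 4 without cKO replicates 4 and 5 together. With that scaling the median of all genes went from −0.03 to −0.16 and the calls from 2298 higher and 1869 lower to 1544 higher and 4030 lower, so small positive differences such as those of Sod1, Sod2 and Txnrd1 are relative to the scaling.

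Gpx1, Gpx2, Gpx4 and Txnrd1 belong to the selenoproteins, of which 21 were tested, with 5 higher and 2 lower (33.3% called beside 28.3% of all genes) and a median of 0.15. Selenop, which carries selenium out of cells, rose from 148 ± 60.0 to 792 ± 405 CPM without overlap (2.42, adjusted p = 0.00506, edgeR, SD, n = 5 each). Dio1, a deiodinase, rose by 0.91, Selenoi by 0.46 and Selenot by 0.32 on the log2 scale, besides Gpx4, while Selenoh fell by 0.36 and Selenon by 0.92. Of 10 genes that make and insert selenocysteine, Secisbp2l rose (0.53) and Eefsec (−0.27) and Scly (−0.20) fell (30% called beside 28.3%), with a median of −0.10. That count of 3 was 7 with scaling by library size only. Without cKO replicates 4 and 5 there were 4 called selenoproteins in place of 7, and 1 called gene of selenocysteine insertion.

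Cat works beside oxidases that make hydrogen peroxide in the same organelle. Of 9 such peroxisomal oxidases tested, 4 rose and none fell (44.4% beside 15.6%), with a median of 0.43. Dao, which oxidizes D-amino acids, rose by 0.73, Pipox, which oxidizes pipecolic acid and sarcosine, by 0.54 and Acox3, an acyl-CoA oxidase, by 0.43 on the log2 scale. Of 16 peroxisome biogenesis genes, Pex11a (0.54), Pex16 (0.44), Pex13 (0.36), Pex2 (0.28) and Pex19 (0.28) rose and Pex26 fell (−0.30), 37.5% called beside 28.3% of all genes, with a median of 0.12. That count of 6 was 3 with scaling by library size only and 4 without cKO replicates 4 and 5. The 4 called oxidases were 2 without cKO replicates 4 and 5. Gpx4 stands in a list of 12 tested genes of lipid peroxidation and ferroptosis, of which 5 rose and 1 fell (41.7% and 8.33%, beside 15.6% higher and 12.7% lower over all genes), with a median of 0.10. Ncoa4, the receptor that delivers ferritin to lysosomes, rose from 117 ± 4.05 to 267 ± 65.0 CPM without overlap (1.19, adjusted p = 0.000587, edgeR). Lpcat3, which puts polyunsaturated chains into phospholipids, rose by 0.58, Alox5 by 0.43 and Slc3a2 by 0.51, and Dhodh fell by 0.41 on the log2 scale. This list had 2 called genes in place of 6 without cKO replicates 4 and 5. Acsl4, which activates such chains, had −0.27 and Slc7a11, the cystine exchanger, −0.59, and neither passed.

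Duox2 and Duoxa2 are induced by microbes, and so are other epithelial genes. Of 10 such genes tested, Duox2 and Duoxa2 among them, Il18 rose from 21.4 ± 12.5 to 60.7 ± 14.2 CPM (1.51, adjusted p = 0.0161, edgeR, SD, n = 5 each) and no other passed (10% beside 15.6% higher over all genes). The median was −0.06 over the 10 and 0.39 over the 8 without Duox2 and Duoxa2. Reg3b ranged from 7.83 to 280 CPM in WT and from 45.0 to 416 CPM in cKO libraries. Lcn2 had −0.71 and Nos2 −0.55, neither past the test. The count of 1 was 0 without cKO replicates 4 and 5 and 2 without cKO replicate 1.

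**Figure D5:**
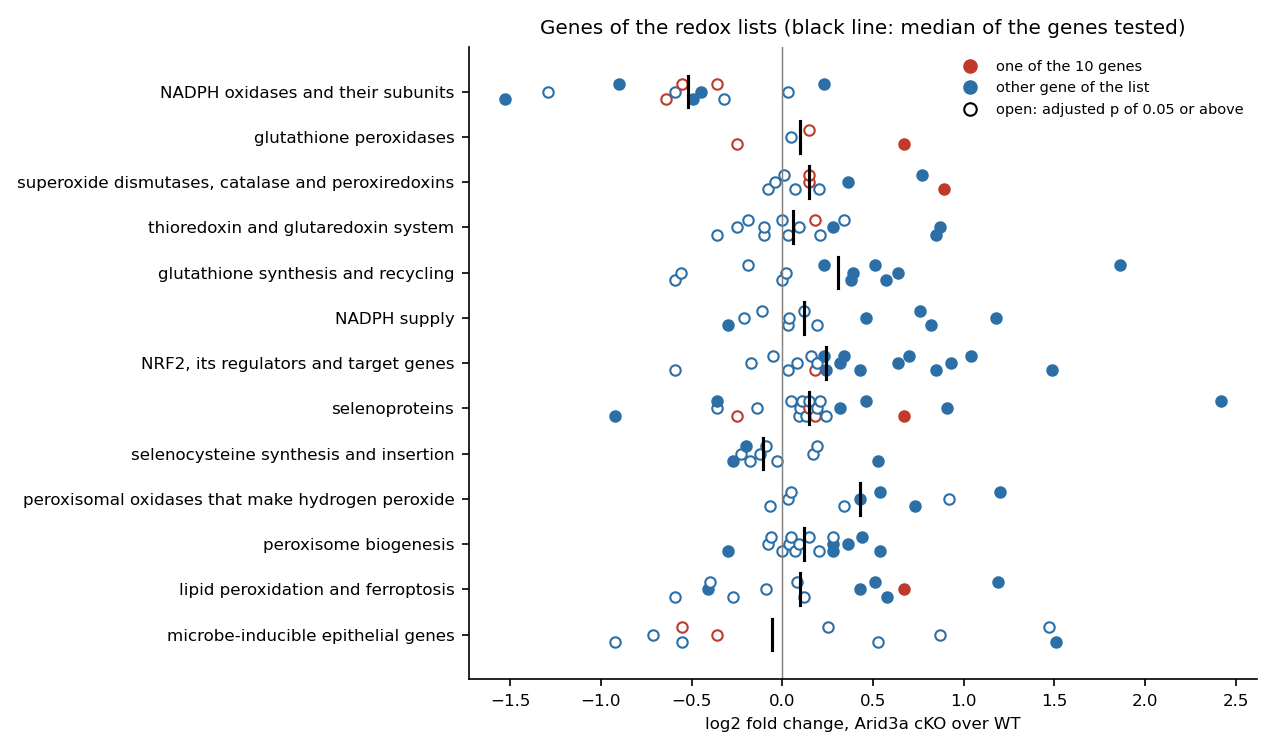
Log2 fold change, Arid3a cKO over WT (horizontal axis), of each tested gene in the 13 lists, with the 10 genes in red, other genes in blue, filled points past an adjusted p of 0.05 and a black line at the median of the tested genes. The NADPH oxidases and their subunits lie mostly left of 0, with a median of −0.52, and the peroxisomal oxidases and glutathione genes mostly right of it, with medians of 0.43 and 0.31.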

How the data were processed

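The reads were processed by the authors with nf-core/rnaseq 3.0, in which STAR aligned them and RSEM counted them, against Ensembl release 95 of GRCm38. Libraries were made from polyadenylated RNA. The authors deposited for each animal the expected count, the TPM, the FPKM and the effective length of each gene, without a filter on low values. RSEM divides reads that match several genes by estimate, and expected counts need not be whole. The deposited TPM are per length and scaled within each library. FPKM was not used.

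Expected counts were rounded and tested in R 4.3.3 with edgeR 4.0.16 (filterByExpr with a minimum count of 10 and a minimum total of 15, TMM, robust glmQLFit, glmQLFTest, Benjamini-Hochberg adjustment over 14719 genes, threshold 0.05), with genotype as the only term, as all libraries are of 1 time. Log2(TPM + 0.5) of genes with a mean of at least 0.5 TPM was tested with limma 3.58.1. Adjusted p values of single genes come from these fits or, where a setting is named, from the same fit under it. Sums and ratios were compared by two-sided exact permutation tests over 252 assignments, whose smallest p is 0.00794, and adjusted over the 6 of them. Leaving out libraries lowers the number of assignments. With cKO replicates 4 and 5 both left out, a single sum or ratio cannot pass after adjustment. Levels are mean ± SD over 5 animals. With totals of 27050455 to 31053622 counts, a gene near 1 CPM carries a large counting error. p values set a difference against the spread between these animals only. They treat the animals as independent, which was not tested for animals that share a stem. Genes without a symbol took 0.018% to 0.0215% of the counts.

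The 10 genes, the 13 gene lists, the 11 marker lists and the tests were chosen with earlier results of these data known. From each list, the genes named were up to 4 past the threshold with the highest TPM and up to 3 with the largest change at 5 CPM or more. Ncf4, Bach1, Mafk, Maff, Selenoi, Selenon, Pex26, Alox5, Dhodh, Cstf2 and genes named as not passing were named after their values were seen. A few genes named by this rule are left unreported, but remain in the counts and medians. Near-identical copies were sought with BLAST 2.17.0 among GENCODE vM21 transcripts (identity of 95% or more, covering 80% or more of the copy). Promoter windows came from RefSeq, and all 10 genes had one. Coordinates are 1-based on GRCm38. The scripts were tested on simulated counts. Alternatives were RLE factors, library size only, DESeq2 1.42.0, limma-voom, other filters, unrounded counts, effective length as an offset, a replicate block, other pseudocounts and leaving out each library, and, chosen after seeing the data, leaving out cKO replicates 4 and 5 together and adding copies to their parent genes.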

Additional observations from a re-analysis of the deposited data

How the results depend on the processing

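Of the 10 genes, Cat passed the threshold under every alternative run on counts and on TPM. Without a filter on low counts 1 of the 10 passed, since Gpx4 had an adjusted p of 0.0560, with 27960 genes tested, and 3 genes of the NADPH oxidase list passed. Without cKO replicates 4 and 5 together again 1 passed, with 3 against 5 libraries, Duox2 turned to a log2 fold change of 0.08, and 1980 genes passed in all in place of 4167. Leaving out 1 library at a time gave 2 to 3 genes of the 10 past the threshold on counts and 2 to 5 on TPM, and 3007 to 4684 genes in all. On TPM the 5 came without cKO replicate 1, with Duox2 at −0.85, Duoxa2 at −0.78 and Gpx2 at −0.50 (adjusted p of 0.0211, 0.0467 and 0.0160 from limma). Differences near 0 on TPM changed sign on leaving out a library. Sod2 ranged from −0.05 to 0.04, Gpx1 from −0.03 to 0.10 and Txnrd1 from −0.01 to 0.08. The cKO minus WT difference of the Gpx1, Gpx2 and Gpx4 sum ranged from −89.4 to 75.3 TPM, that of the Duoxa2 to Duox2 ratio from −0.20 to 0.04, that of the oxidase sum from −4.82 to −2.42 TPM and that of the Gpx1 to Gpx2 ratio from 0.34 to 0.47, the last pair passing only without cKO replicate 1. The cause of these changes was not tested. Same-numbered libraries of the genotypes did not deviate together (correlations of −0.201 to 0.0992). Low correlations cannot show whether the animals were paired, and the main fits treated them as unpaired. With a replicate block in the edgeR fit 3048 genes passed, among them Cat (0.88, adjusted p = 0.0299) and Gpx4 (0.71, adjusted p = 0.0174) of the 10, and on TPM again 2 of the 10, while the NRF2 list had 7 called genes, the selenocysteine insertion list 1 and the microbe-inducible list 3. DESeq2 called 4758 genes (5 of the thioredoxin and 2 of the microbe-inducible list) and library size only 5574. Nox1, Duox2 and Duoxa2 had down to 26.3, 76.0 and 15.5 counts in a library, where counting error is a larger part of the value than in the other 7 genes.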
